A study of Mus musculus
Mus spretus with 18 samples.

Results

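Cerebral cortex and embryonic stem cells (ESC) from a C57BL/6J x SPRET/EiJ F1 cross were compared for the inclusion of skipped exons (SE events) and for gene expression, with 2 libraries of each among the 18 libraries of the series. One parent is the common inbred strain of Mus musculus and the other an inbred line of the wild species Mus spretus, and all 4 libraries carry one genome of each. The cortex libraries came from 2 untreated female mice of 8 weeks. The ESC libraries came from 2 independent clones derived from the same cross, grown in serum-free medium with 2i inhibitors and LIF, which hold mouse ESC in the naive pluripotent state. Each ESC replicate is thus 1 clone, and each cortex replicate 1 animal. Events were taken where they lay on an autosome, stood in the tables of all reads for both tissues and were covered by 20 or more junction reads in every one of the 4 libraries. This left 20706 of the 71814 distinct events of the cortex and ESC tables, of which 23572 were in both tables and 22810 of those on autosomes. The 20706 events covered 18876 distinct exons in 7414 genes, since an exon can enter several events with different neighbours.

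Percent spliced in (PSI) is the share of transcripts that include an exon, here from 0 to 1, computed from the inclusion and skipping reads per effective length of each form. ΔPSI is the mean PSI of the 2 cortex libraries minus that of the 2 ESC libraries. An event was called at an adjusted p under 0.05 (Benjamini-Hochberg over all events, quasi-binomial model with moderated dispersion) and an absolute ΔPSI of at least 0.1, and Switch-Like events were those called with 0.5 or more. Micro-exons are exons of 30 bp or less. They are known to be spliced in mostly in neurons, where most keep the reading frame and add a few residues to proteins of the synapse, the vesicle cycle and the cytoskeleton. Their inclusion in neurons is known to depend on the SR-related proteins Srrm3 and Srrm4, whereas Ptbp1 represses many neural exons in other cells. Rbfox, Nova, Elavl, Celf, Mbnl and Khdrbs proteins bind RNA near further neural exons, and Esrp1 and Esrp2 are known from epithelial splicing.

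Summed over the 41524 SE events listed for cortex, the junction reads were 46558287 and 48273341 in its libraries. Over the 53862 listed for ESC they were 73349137 and 85755969, where a read can count in several events. These sums cover different events and do not compare sequencing depth. The paper reports fewer sequenced reads for the ESC libraries than for those of cortex. The replicates of cortex lay closer together than those of ESC. The median absolute difference in PSI between replicates was 0.00875 in cortex and 0.0155 in ESC, and across events, which are not independent, Pearson's r was 0.991 and 0.970. The spread of the counts between replicates, relative to binomial sampling, averaged 3.22 in cortex and 17.5 in ESC over events with at least 20 reads of the rarer form in that tissue. In expression, the median absolute difference between replicates on the log2 scale was 0.088 in cortex and 0.45 in ESC, and 10 and 471 of 14030 genes with a mean TPM of 5 or more differed at least 4-fold between the replicates of cortex and of ESC. With 2 libraries per tissue, an exact two-sided permutation test of a single event could not go below p = 0.333, and all tests rest on a spread shared across events or genes.

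The markers of each label were checked in TPM, the transcript abundance per length and library size that the authors deposited. All 20 pluripotency markers were lower in cortex and all 15 neuron markers higher (limma on log2(TPM + 0.1), adjusted p under 0.05 and 2-fold or more), beside 28.1% lower and 32.0% higher of all 20218 genes tested. Pou5f1, the transcription factor that defines the pluripotent state, had 1146 and 1261 TPM in the ESC libraries and 0.00768 and 0 in cortex. Dppa5a, an RNA-binding protein of naive ESC, was the most abundant marker in ESC, with 5701 and 5552 TPM. Camk2a, the kinase of excitatory synapses, led the neuron markers with 1046 and 1075 TPM in cortex against 6.45 and 4.69 in ESC. The neuron markers summed to 6484 and 7011 TPM in cortex and to 249 and 204 in ESC. In ESC the highest of them was Stmn2, with 127 and 73.3 TPM against 513 and 550 in cortex.

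Cortex is a mixture of cell types, and the other lists showed this. Of the astrocyte markers 6 of 8 were higher in cortex, of the oligodendrocyte markers 7 of 8, of the oligodendrocyte precursor markers 2 of 3, of the microglia markers 7 of 7 and of the endothelial markers 3 of 5, with 1 lower, beside 32.0% higher and 28.1% lower of all genes. The summed TPM of the oligodendrocyte markers was 3490 and 3224 in cortex against 205 and 311 in ESC, where nearly all of it was Cnp. Astrocyte markers summed to 2260 and 2202 TPM in cortex against 99.7 and 176 in ESC, microglia markers to 216 and 217 against 5.72 and 1.06, and endothelial markers to 136 and 136 against 147 and 96.9. In ESC 120 and 88.3 TPM of the last sum were Pecam1, the endothelial marker called lower in cortex, whereas Cldn5 had 0.698 and 0.689 there against 70.5 and 73.6 in cortex. In bulk samples such as these, fewer cells of a type and less RNA per cell cannot be told apart, and the part of each cell type in the differences below was not tested. Choroid plexus and meninges markers, 4 of 5 higher and 1 lower in cortex, summed to 1495 and 1299 TPM there and to 172 and 115 in ESC, of which 1323 TPM in cortex, as the mean of both libraries, was Ttr. Of the 5 erythroid markers 4 were tested and all of these were higher in cortex, with sums of 109 and 166 TPM in cortex, mostly Hbb-bs, and 0.00893 and 0.0373 in ESC. All 6 immediate early genes were higher in cortex, with sums of 320 and 365 against 73.3 and 43.2 TPM, led by Egr1, but 1 of the 6 was called without either cortex library. The called markers that did not pass without either cortex library included Nefl, Stmn2, Csf1r, Cdh5, Slc6a13, Krt8, Krt18, Fos, Fosb, Junb, Arc and Egr1.

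The 2 ESC clones differed in markers of differentiating cells, whose summed TPM was 1208 in replicate 1 and 96.8 in replicate 2, against 35.3 and 33.0 in cortex. Of the 12 genes 11 were tested, of which 5 were higher and 5 lower in cortex. Most of the difference between the clones in this sum was in the keratins Krt18, with 653 and 37.4 TPM in the ESC libraries, and Krt8, with 540 and 24.3. Other members were higher in replicate 2, such as T (brachyury) with 0.602 and 20.97 TPM, Cdx2 with 0.493 and 4.01 and Otx2 with 0.512 and 1.51. Pluripotency markers summed to 11786 and 12501 TPM in the same clones, of which Dppa5a made up a large share. Single pluripotency markers differed between the clones, such as Lin28a with 10.3 and 36.98 TPM, Tdh with 155 and 456, L1td1 with 72.7 and 193, Dppa3 with 232 and 438 and Dnmt3l with 89.5 and 32.7. Fibroblast or feeder markers, 2 of 6 higher and 1 lower in cortex, were low in all 4 libraries, at 22.9 and 25.4 TPM in cortex and 34.0 and 8.38 in ESC. Without either cortex library, 1 of the differentiating cell markers was called in each direction. Of the fibroblast or feeder markers, 1 was then higher and 0 lower, against 4 and 0 without ESC replicate 1 and 2 and 2 without ESC replicate 2. Called counts over all events and genes, by list, by length and by reading frame are therefore also given without a library where that changes them by more than 1.5 times, while the classes by intron length and those without events near 0 or 1 were not recomputed.

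Exons were gained in cortex more often than they were lost. Of the 20706 events, 881 (4.25%) had higher inclusion in cortex and 628 (3.03%) lower, in 649 and 487 genes, with 95 genes in both groups and 1041 in all. The median ΔPSI of the called events was 0.45 for those higher and -0.35 for those lower. Switch-Like events numbered 554 (2.68%), 381 higher and 173 lower in cortex. In all 1509 called events the cortex libraries lay wholly above or below the ESC libraries, as they did in 43.2% of all events. Of the events higher in cortex, 386 had a mean PSI under 0.1 in ESC and 318 a mean PSI above 0.9 in cortex. Of those lower in cortex, 312 were above 0.9 in ESC and 114 under 0.1 in cortex. Most events did not move in either direction: 14649 (70.7%) had a mean PSI above 0.9 in both tissues. A further 1410 events differed by 0.1 or more without passing the test. Without cortex replicate 1 or 2, 645 or 686 events were higher and 399 or 409 lower, and without ESC replicate 1 or 2, 1564 or 1344 were higher and 1056 or 1108 lower. In the last 2 fits the lone ESC library is assumed to vary like the cortex libraries.

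**Figure D1:**
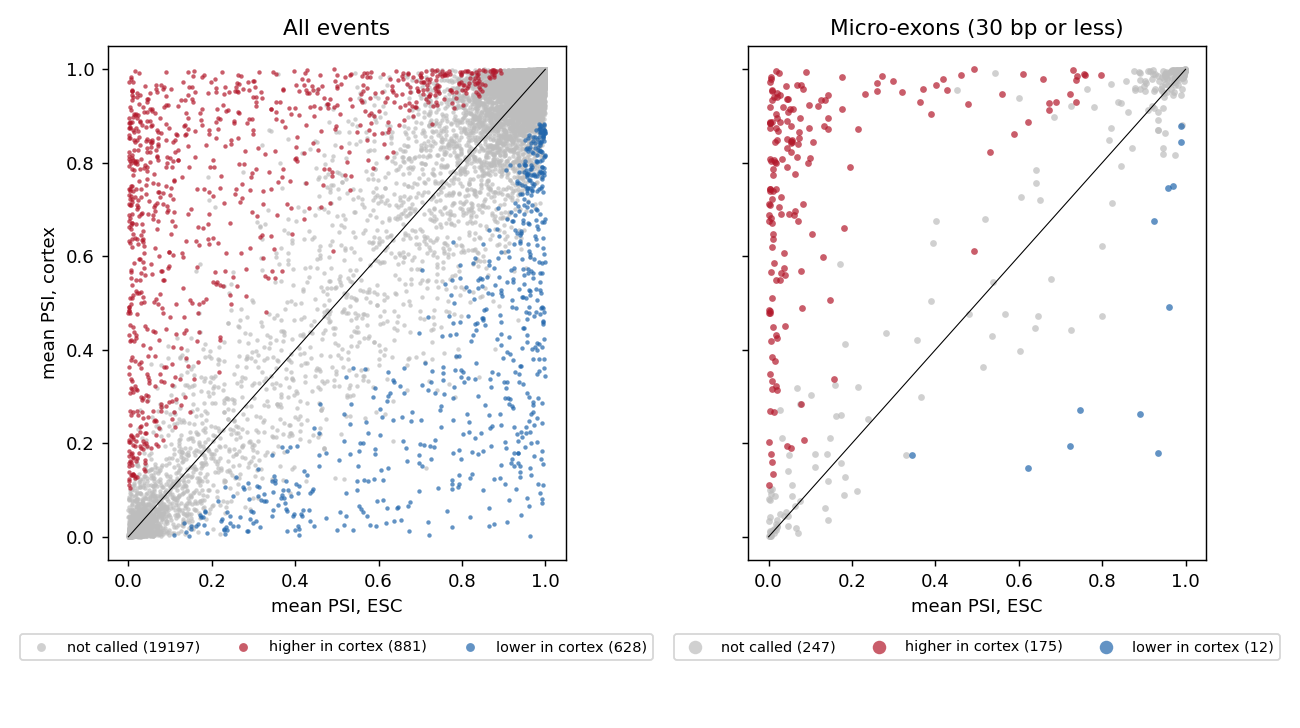
Mean PSI in ESC (x axis) against mean PSI in cortex (y axis) for all 20706 events and for the 434 micro-exon events, coloured by call. Among micro-exons, 175 of the called events lie above the diagonal and 12 below it.

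Micro-exons were called mostly in one direction. They made up 434 of the events, of which 175 (40.3%) had higher and 12 (2.76%) lower inclusion in cortex, beside 4.25% and 3.03% of all events. The 175 events held 169 exons in 152 genes, from 3 bp long, with a median length of 21 bp and a median ΔPSI of 0.69, and 123 of them were Switch-Like. The median PSI over all micro-exon events was 0.886 and 0.893 in the cortex libraries and 0.364 and 0.389 in the ESC libraries, while the median over all events was between 0.975 and 0.984 in each library. Exons of 31 to 60 bp had 8.98% of events higher and 4.74% lower, exons over 60 and under 300 bp 2.75% and 2.80%, and exons of 300 bp or more 3.90% and 3.49%. The share called higher was thus lower in each class above 30 bp. Micro-exon events had fewer reads than others, with a median of 214 in the shallowest library against 337 over all events. After events near a PSI of 0 or 1 in all 4 libraries were set aside, 60.8% of micro-exon events were higher and 4.17% lower, against 12.8% and 11.2% of longer exons. Without ESC replicate 1 or 2, exons over 60 and under 300 bp had 1041 or 776 events higher and 813 or 901 lower, in place of 476 and 484, and without cortex replicate 1 or 2 they had 317 or 341 higher and 306 or 313 lower. The 31 to 60 bp class went from 106 events lower to 65, 64, 179 and 143 without cortex replicate 1, cortex replicate 2, ESC replicate 1 and ESC replicate 2, and from 201 higher to 307 without ESC replicate 2. The class of 300 bp or more went from 29 higher to 16, 18, 74 and 53 in the same order, and from 26 lower to 45 and 44 without ESC replicate 1 and 2. These classes are described without a test.

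**Figure D2:**
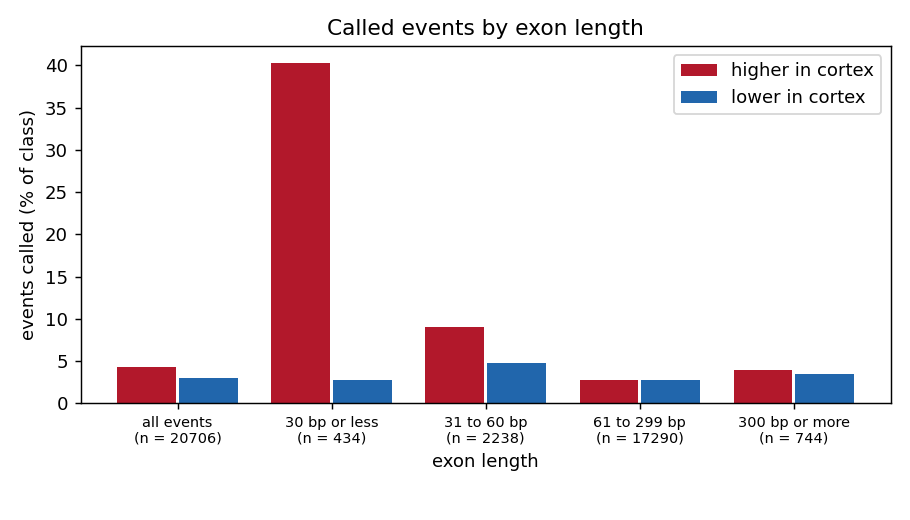
Share of events called higher (red) or lower (blue) in cortex, in percent of each class of exon length, with the number of events tested under each class. Exons of 30 bp or less reach 40.3% in one direction and 2.76% in the other.

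The calls were also counted by reading frame. Of the 303 micro-exon events whose length divides by 3, 52.5% were higher and 3.30% lower in cortex, and of the 131 others 12.2% and 1.53%, beside 4.25% and 3.03% of all events. A mean PSI above 0.9 in both tissues, which leaves little room for a gain, was found in 18.2% of the former and 57.3% of the latter. In longer exons the shares were 5.75% higher and 4.32% lower where the length divides by 3 and 1.94% and 2.17% where it does not. Without ESC replicate 1 or 2, the last class had 597 or 458 events higher and 512 or 519 lower, in place of 235 and 262. Without cortex replicate 1 or 2 it had 133 or 145 higher and 138 or 148 lower. Those of longer exons whose length divides by 3 went from 471 higher to 774 without ESC replicate 1, and from 354 lower to 569 without ESC replicate 2. Micro-exon events whose length does not divide by 3 went from 16 higher to 25 without ESC replicate 2. The same class went from 2 lower to 0, 1 and 4 without cortex replicate 1, cortex replicate 2 and ESC replicate 1. Micro-exon events whose length divides by 3 went from 10 lower to 17 without ESC replicate 2. Events whose shorter flanking intron was in the lowest quartile (355 bp or less) had 2.89% higher and 3.59% lower, beside 4.25% and 3.03% of all events. In the next quartile, up to 1114 bp, 5.58% were higher and 3.17% lower, in the third 4.68% and 3.62%, and in the quartile of longest introns (above 2842 bp) 3.86% were higher and 1.76% lower, with no test of these differences.

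The micro-exons with the largest gain were all but absent from ESC transcripts and all but constant in cortex. The 27-bp exon of Ppfia4 (chr1:134311529-134311555, minus strand), a liprin-α scaffold of the presynaptic active zone, had a PSI of 0.998 and 0.993 in cortex and 0.0208 and 0.0125 in ESC, a ΔPSI of 0.98 ± 0.01 (SE, n = 2 per tissue; adjusted p = 2.24e-05 by the quasi-binomial model, moderated with limma, as for each event below). The 24-bp exon of Synj1 (chr16:90940473-90940496, minus strand), the phosphatase that uncoats clathrin vesicles, had 0.979 and 0.982 in cortex and 0 and 0.0111 in ESC. The 9-bp exon of Asap1, an Arf GTPase-activating protein, was at 0.986 and 0.979 in cortex against 0 and 0.0114. In each of these the replicates of a tissue differed by less than 0.02 and the tissues by nearly the whole range.

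Exons of nuclear proteins were among them too. The 30-bp exon of Meaf6, a subunit of histone acetyltransferase complexes, had a PSI of 0.974 and 0.972 in cortex and 0 and 0.00453 in ESC. The 21-bp exon of Mef2d (chr3:88161781-88161801, plus strand), a transcription factor of neurons and muscle, had 0.930 and 0.968 against 0.0190 and 0.0215, with a ΔPSI of 0.93 ± 0.01 and an adjusted p of 9.58e-06 (limma-moderated). Its relative Mef2a gained a 24-bp exon, with 0.866 and 0.893 in cortex and 0.0431 and 0.222 in ESC. The 2 ESC clones were further apart for Mef2a than for Mef2d, and both stayed below cortex. The other micro-exons of the first 10 lay in Cers6 (a ceramide synthase), Arhgap21 (a GTPase-activating protein), Dctn1 (the large dynactin subunit, 15 bp), Eml5 (a microtubule-associated protein, 9 bp) and Exoc1 (an exocyst subunit), with ΔPSI from 0.92 to 0.97.

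Only 12 micro-exon events went the other way, and with smaller differences. The 27-bp exon of Mroh1 had a PSI of 0.173 and 0.185 in cortex and 0.953 and 0.915 in ESC, a ΔPSI of -0.76 ± 0.03. The 9-bp exon of Macf1, which links actin to microtubules, had 0.266 and 0.259 against 0.911 and 0.870. The 24-bp exon of Mapk8ip3, a scaffold of JNK signalling and kinesin cargo, had 0.219 and 0.169 against 0.573 and 0.873. The ESC clones stood apart there, as they did for the 9-bp exon of Kif3a, a kinesin-2 motor, with 0.606 and 0.889 in ESC and 0.283 and 0.260 in cortex. The other 6 of the first 10 were in Trappc13, Sgce, Supt5, Htra2, Hnrnpm and Arhgef11, with ΔPSI from -0.48 to -0.17. The smallest, in Arhgef11, had an adjusted p of 0.0478 (limma-moderated) and did not pass without cortex replicate 1, cortex replicate 2 or ESC replicate 1. Hnrnpm did not pass without either cortex library, nor Htra2 without cortex replicate 1. Without cortex replicate 1 the count of micro-exon events lower in cortex was 7, and without cortex replicate 2 it was 8. Without ESC replicate 1 it was 19 and without ESC replicate 2 it was 20. The count of those higher stayed between 156 and 208.

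**Figure D3:**
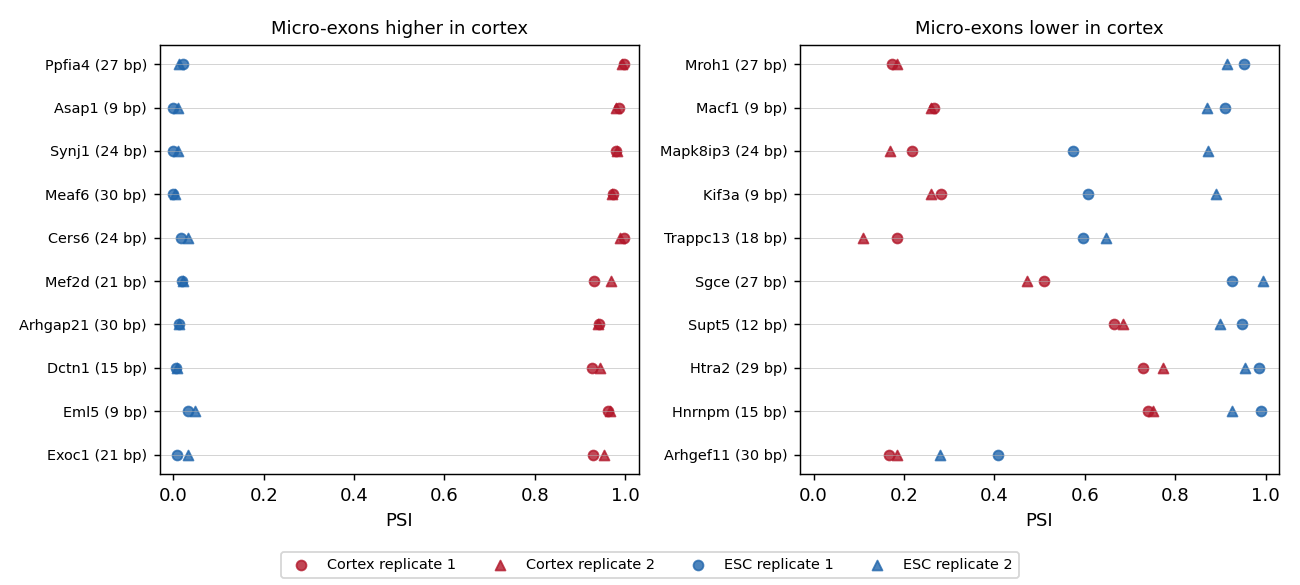
PSI (x axis, 0 to 1) in each of the 4 libraries for the 10 micro-exons with the largest called gain (left) and loss (right) in cortex, 1 per gene, with the exon length in brackets; red is cortex, blue ESC, circles replicate 1 and triangles replicate 2. On the left no ESC library exceeds 0.0478 and no cortex library is below 0.926, while on the right the ESC clones are often apart.

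The exons with the largest loss in cortex were longer than micro-exons, with ΔPSI of the first 10 between -0.96 and -0.84. The 36-bp exon of Ryr2, the calcium release channel of the endoplasmic reticulum, had a PSI of 0 and 0.00466 in cortex and 0.981 and 0.945 in ESC, a ΔPSI of -0.96 ± 0.03. Dst, a spectraplakin that joins intermediate filaments to the other cytoskeletal fibres, skipped a 327-bp exon (chr1:34249804-34250130, plus strand) in cortex, with 0.100 and 0.0848 against 0.986 and 0.988 and an adjusted p of 3.35e-06 (limma-moderated). Myo5a, the myosin that carries vesicles on actin, had an 81-bp exon at 0.0219 and 0.0243 in cortex and 0.807 and 0.926 in ESC. In the other direction, Myo5a also gained a 9-bp exon, named after its values were seen, with 0.940 and 0.933 in cortex against 0.0362 and 0.0530 in ESC. The first 10 also held Synrg (a clathrin adaptor partner), Dmxl2, Myo18a, Clip1 (which binds growing microtubule ends), Etl4, Tom1l2 and the noncoding Sox2ot, with ΔPSI between -0.92 and -0.84. Among longer exons gained, Madd (63 bp, ΔPSI 0.96), Magi1 (89 bp, 0.95) and Shf (141 bp, 0.94) were in the first 10.

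The share of events called ranged widely between the gene lists. Of the synapse and vesicle genes, 33 of 59 had tested events, and 48 of their 139 events (34.5%) were higher and 5 (3.60%) lower in cortex, in 25 genes, beside 4.25% and 3.03% of all events, so that the share lower was near that of all events. Without ESC replicate 1, 9 were lower. Besides Ppfia4 and Synj1, Unc13b, which primes vesicles for release, had a 57-bp exon at 0.862 and 0.878 in cortex against 0.0175 and 0.00277 in ESC. Camk2d, a calcium-dependent kinase, had a 60-bp exon at 0.833 and 0.886 against 0.00315 and 0. In the cytoskeleton and motor genes both directions were frequent, with 51 of 243 events (21.0%) higher and 34 (14%) lower, in 33 of 40 genes, beside the same 4.25% and 3.03%. Abi1, which regulates actin assembly, gained a 15-bp exon, with 0.995 and 0.993 against 0.127 and 0.0520. Lmo7 gained a 720-bp exon, with 0.872 and 0.919 against 0 and 0.00260.

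Of the adhesion, guidance and signalling genes, 30 of 177 events (16.9%) were higher and 14 (7.91%) lower, beside 4.25% and 3.03% of all events. Agrn, the heparan sulfate proteoglycan that clusters acetylcholine receptors at the neuromuscular junction, had a 12-bp exon at a PSI of 0.914 and 0.878 in cortex and 0.0880 and 0.0637 in ESC. The 6-bp exon of Apbb2, an adaptor of the amyloid precursor protein, had 0.890 and 0.869 against 0.0647 and 0.0445. The receptor phosphatases Ptprk and Ptprf gained exons of 18 and 27 bp, with ΔPSI of 0.83 ± 0.02 and 0.78 ± 0.03. All 4 were micro-exons that were rare in both ESC clones.

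Translation, trafficking and metabolism genes had 33 of 162 events (20.4%) higher and 4 (2.47%) lower, beside 4.25% and 3.03% of all events, led by Asap1, Cers6 and the exocyst genes Exoc1 and Exoc7. The 39-bp exon of Exoc7 had 0.914 and 0.912 in cortex and 0 and 0.0104 in ESC. Chromatin and transcription genes had 15 of 164 (9.15%) higher and 6 (3.66%) lower. In both lists the share lower was near that of all events. Without ESC replicate 1, 27 events of the chromatin list were higher and 11 lower, and 9 of the translation list lower, against 8 of the latter without ESC replicate 2. Bptf, the largest subunit of the NURF remodelling complex, gained a 186-bp exon, with 0.871 and 0.851 against 0.162 and 0.0682, and Ep400, a remodelling ATPase, lost one of 243 bp, with 0.245 and 0.265 against 0.996 and 0.965. The lists were not tested as sets. Their median ΔPSI ran from -0.000218 in the core snRNP list to 0.0208 in the synapse list. These medians lay near that of all events (0.00149), since most events of each list did not move.

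Most neural and tissue splicing regulators were called for their level. Of the 38 genes, all of which were tested, 24 (63.2%) were higher and 8 (21.1%) lower in cortex, beside 6478 (32.0%) higher and 5682 (28.1%) lower of the 20218 genes tested. Their median log2 difference was 2.10, and that of all genes 0.077. Without cortex replicate 1 or 2 the regulators called were 17 higher and 5 lower in both fits, and of all genes 3560 or 3514 were higher and 2864 or 2873 lower. Without either cortex library Mbnl1, Ptbp2, Rbfox2, Celf5, Tia1, Tial1, Raver2, Mbnl3, Rbm20 and Rbm47 did not pass. Levels between genes are compared in TPM, which is per length.

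Srrm3 and Srrm4 rose in cortex. Srrm4 had 25.8 and 25.6 TPM in cortex and 0.818 and 1.08 in ESC, a log2 difference of 4.63 ± 0.23 (SE, n = 2 per tissue; limma adjusted p = 0.000493). Srrm3 had 25.8 and 30.9 TPM in cortex and 0.0301 and 0.113 in ESC, a log2 difference of 7.41 ± 0.35 on the log2(TPM + 0.1) scale, which understates changes of genes near 0. Both were low in both clones.

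The polypyrimidine tract binding proteins moved in opposite directions. Ptbp1 had 25.01 and 22.4 TPM in cortex and 324 and 372 in ESC, and its log2 level fell by 3.87 (SE 0.14, limma adjusted p = 0.000339). Its neural relative Ptbp2 had 111 and 109 TPM in cortex against 41.6 and 24.8, higher by 1.78 ± 0.29. Ptbp3 had 16.3 and 15.7 against 68.9 and 73.9 TPM, and Raver1, which binds Ptbp1, 32.4 and 33.8 against 111 and 161. ESC thus held more Ptbp1 than Ptbp2 and cortex more Ptbp2 than Ptbp1, in every library.

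Rbfox1 and Rbfox3 were near 0 in ESC. Rbfox1 had 244 and 245 TPM in cortex and 0.186 and 0.339 in ESC, a log2 difference of 9.43 ± 0.27, the largest of the list, and Rbfox3, the antigen known as NeuN, 110 and 124 against 0.118 and 0.0838. Rbfox2 was expressed in both, with 129 and 137 against 71.7 and 54.6 TPM, a log2 difference of 1.09 ± 0.18 that was close to the 2-fold threshold and, beside the cortex libraries, also did not pass without ESC replicate 2. Nova1 and Nova2 were higher in cortex by 4.11 ± 0.40 and 3.59 ± 0.26. Of the Elavl genes, Elavl2, Elavl3 and Elavl4 rose, with log2 differences of 2.79, 4.74 and 6.72, and the ubiquitous Elavl1 had 47.7 and 49.7 TPM in cortex and 45.4 and 51.1 in ESC (adjusted p = 0.917 by limma).

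Most Celf genes were higher in cortex. Celf2, Celf3, Celf4, Celf5 and Celf6 were higher in cortex by 3.46 to 8.62 on the log2 scale, and Celf4 was the most abundant with 302 and 318 TPM against 5.42 and 1.40. Celf1 had 116 and 122 against 102 and 108 TPM, a log2 difference of 0.18 ± 0.11 that did not pass. Mbnl1 was higher in cortex with 57.3 and 56.7 against 11.8 and 7.29 TPM. For Mbnl2 the ESC clones disagreed, with 97.4 and 14.3 TPM beside 170 and 173 in cortex. Its log2 difference of 2.20 ± 1.00 did not pass (limma adjusted p = 0.121). Khdrbs2 and Khdrbs3 were higher by 5.06 ± 0.49 and 2.72 ± 0.17, and Khdrbs1 had 59.8 and 62.4 against 59.96 and 88.7 TPM and did not pass. Rbm24, Tia1, Tial1, Raver2 and Zcchc24 were higher in cortex by 1.09 to 3.86. Qk, a regulator of glial splicing, had 140 and 129 against 84.4 and 74.05 TPM, below 2-fold.

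Of the 8 regulators that were lower in cortex, Rbm38 was first. It had 100.1 and 111 TPM in ESC and 1.89 and 2.19 in cortex, and its log2 level fell by 5.63 in cortex (SE 0.17). Esrp2 had 7.20 and 8.26 TPM in ESC against 0.117 and 0.164 in cortex. Esrp1 had 4.78 and 0.332 TPM in the 2 clones against 0.0527 and 0.0113, and did not pass (limma adjusted p = 0.0766). Rbm20, the heart regulator of titin splicing, had 64.4 and 21.2 against 4.05 and 3.91 TPM, and Rbm47 and Mbnl3 were also lower in cortex. Between the clones, regulators differed in both directions, as in Celf5 with 18.7 and 7.23 TPM and Nova1 with 1.60 and 3.37 in ESC replicates 1 and 2. The part of differentiating cells in these values was not tested.

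**Figure D4:**
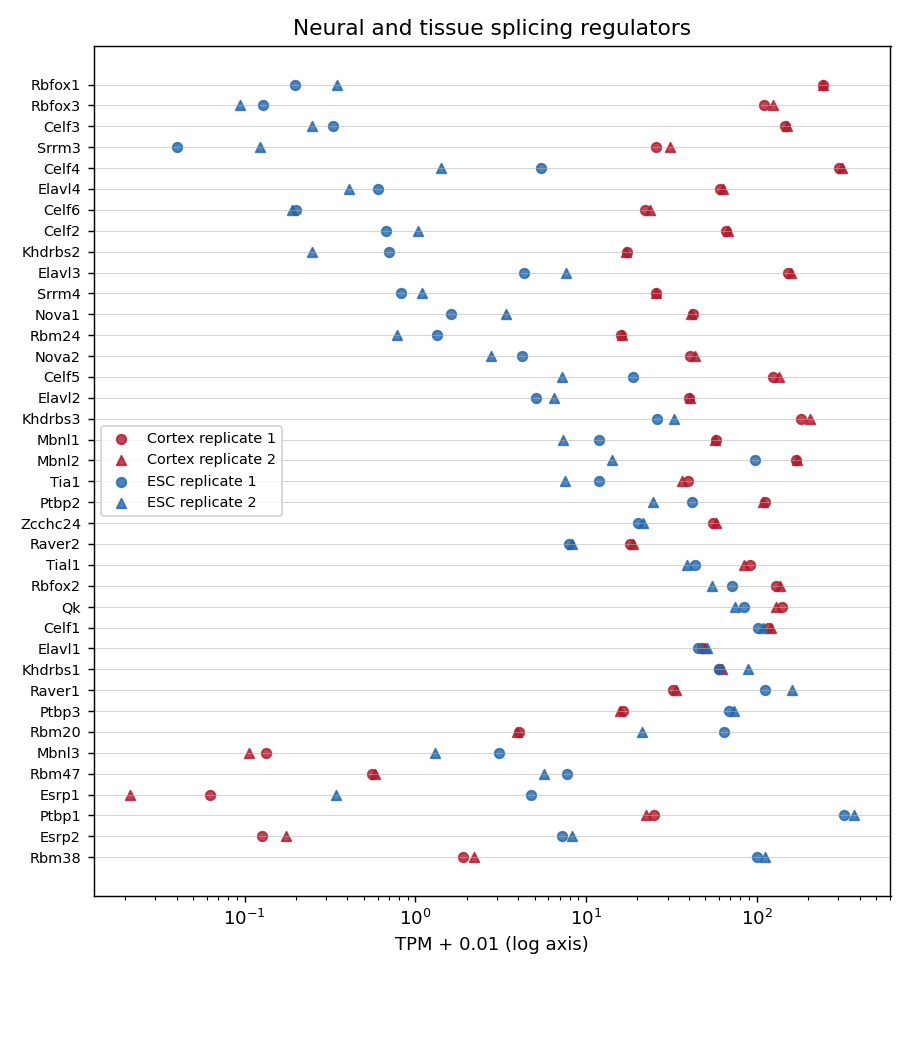
TPM + 0.01 (x axis, log scale) of the 38 neural and tissue splicing regulators in each of the 4 libraries, ordered by the log2 difference of cortex and ESC; red is cortex, blue ESC, circles replicate 1 and triangles replicate 2. Rbfox1, with 244 and 245 TPM in cortex, is at the top, and Rbm38, with 100.1 and 111 TPM in ESC, at the bottom, and the cortex replicates nearly coincide where the ESC clones spread.

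Genes of the core snRNP list were mostly lower in cortex. The list also holds splicing factors outside the snRNPs, such as U2af1, U2af2, Sf1, Prpf19 and Cdc5l. Of its 34 genes, 27 (79.4%) were lower in cortex and 1 (2.94%) higher, with a median log2 difference of -1.45. Without either cortex library 10 were called lower, and without ESC replicate 1 or 2, 27 or 23. Of the hnRNP and related genes, 10 of 30 (33.3%) were lower and 3 (10.0%) higher, and of the SR proteins and splicing kinases 2 of 22 (9.09%) lower and 5 (22.7%) higher, beside 28.1% and 32.0% of all genes. Without either cortex library, 6 hnRNP genes were lower and 1 higher, and 1 of the SR list was lower. Of the SR list, 2 or 3 were higher without cortex replicate 1 or 2, and 6 were lower without ESC replicate 1. Hnrnpf had 20.1 and 20.4 TPM in cortex and 265 and 286 in ESC, and Hnrnpa1 had 255 and 261 against 882 and 1267. The log2 differences of Hnrnpf and Hnrnpa1 were -3.76 ± 0.11 and -2.03 ± 0.21, and those of Pcbp1 and Hnrnpab -1.91 and -1.87. Hnrnpa1 did not pass without either cortex library. In the other direction Srpk3, a kinase of SR proteins known from muscle, had 14.7 and 14.2 against 0.478 and 0.564 TPM, and Srsf12, Pcbp4 and Clk4 were higher by 3.29, 3.12 and 1.86. TPM are relative to the RNA of a library, so a lower value can go with the same amount per cell.

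Exons of 4 neural and tissue splicing regulators were themselves called. Among the 59 tested events of 20 neural and tissue splicing regulators, 4 were higher in cortex (6.78%) and 3 lower (5.08%), near the 4.25% and 3.03% of all events. Without ESC replicate 1 they were 7 and 7, and without ESC replicate 2 they were 7 and 3. Elavl2 included a 39-bp exon (chr4:91254141-91254179, minus strand) at a PSI of 0.957 and 0.966 in cortex against 0.120 and 0.170 in ESC, a ΔPSI of 0.82 ± 0.05, and at 0.923 and 0.897 against 0.194 and 0.274 in a second event with other neighbouring exons. An exon of 91 bp in Elavl2 rose to 0.790 and 0.839 from 0.0353 and 0.104. Exons of different length were called in Mbnl1 and Mbnl2, and they were not matched between these genes. The 36-bp exon of Mbnl1 had 0.738 and 0.784 in cortex against 0.315 and 0.461 in ESC. The 54-bp exon of Mbnl2 (chr14:120395712-120395765, plus strand) had 0.412 and 0.435 against 0.826 and 0.944. A 95-bp exon of Mbnl2 fell likewise, with 0.564 and 0.473 against 0.800 and 0.944. Raver1 lost some of an 84-bp exon, with 0.833 and 0.862 against 0.993 and 0.987. The calls for Mbnl1 and Raver1 were lost without either cortex library. The events of Ptbp1 (3), Ptbp2 (1) and Qk (6) that were tested were not called.

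Among SR proteins and their kinases, 12 of 52 events (23.1%) were higher and 1 (1.92%) lower in cortex, in 6 genes, beside 4.25% and 3.03% of all events. Without cortex replicate 1, 7 were higher, and without ESC replicate 1 or 2, 2 or 3 were lower. The 64-bp exon of Srsf11 had 0.838 and 0.901 in cortex and 0.103 and 0.286 in ESC, and the 90-bp exon of Srsf9 had 0.532 and 0.464 against 0.00499 and 0.00640. Clk4 and Clk2, kinases that phosphorylate SR proteins, gained exons of 67 and 85 bp, with 0.845 and 0.805 against 0.356 and 0.347 for Clk4 and 0.856 and 0.904 against 0.668 and 0.629 for Clk2. Of 83 events of hnRNP and related genes 7 (8.43%) went in each direction, beside the same 4.25% and 3.03%. The 18-bp exon of Ewsr1 rose to 0.419 and 0.432 from 0.0248 and 0.0132, and a 497-bp exon of Hnrnpl fell to 0.443 and 0.501 from 0.767 and 0.773. Hnrnpc gained a 26-bp exon (ΔPSI 0.27) and Syncrip lost one of 160 bp (ΔPSI -0.23). In the core snRNP list, 5 of 47 events (10.6%) were lower and 1 (2.13%) higher, in 3 genes, beside 3.03% and 4.25% of all events. Without either cortex library 0 were higher. U2af1, which recognises the 3′ splice site, had a 67-bp exon at 0.463 and 0.464 in cortex against 0.868 and 0.833, and Snrpa1, a U2 snRNP protein, an 80-bp exon at 0.775 and 0.704 against 0.970 and 0.966. A 96-bp exon of Prpf3, a U4/U6 snRNP protein, was higher in cortex with 0.248 and 0.254 against 0.108 and 0.101. The calls for Clk2 and Prpf3 were lost without either cortex library.

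**Figure D5:**
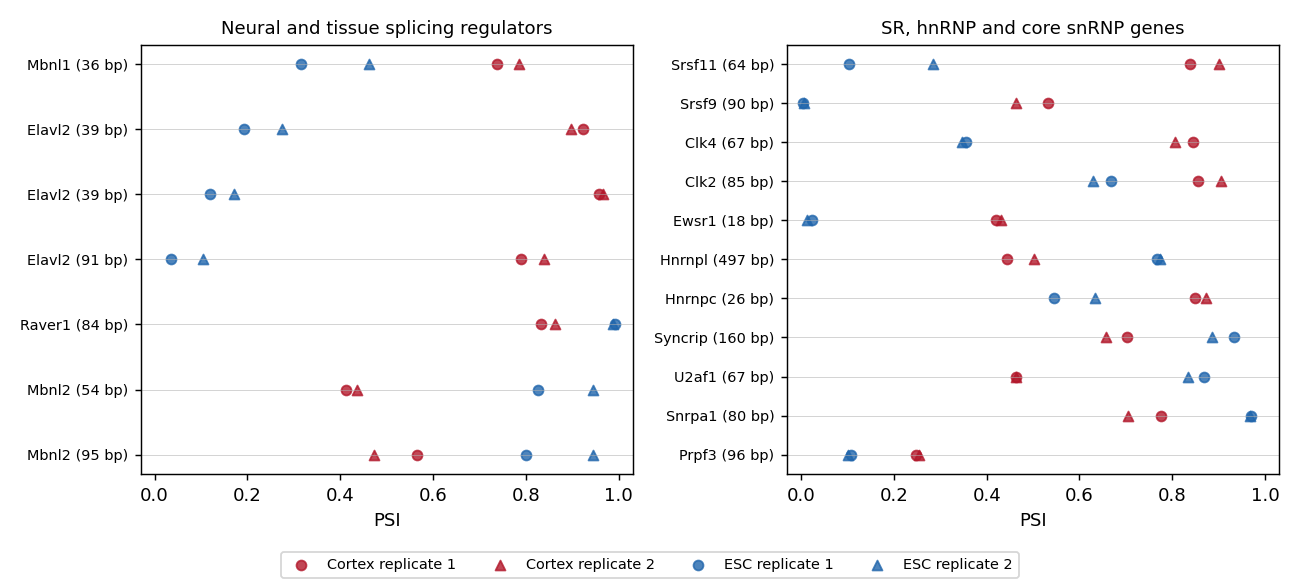
PSI (x axis, 0 to 1) in each of the 4 libraries for every called event of the neural and tissue splicing regulators (left) and for the event with the largest called difference of up to 4 genes in each of the SR, hnRNP and core snRNP lists (right), with the exon length in brackets; red is cortex, blue ESC, circles replicate 1 and triangles replicate 2. Exons of Elavl2, Srsf11 and Srsf9 are higher in cortex and those of Mbnl2, U2af1 and Hnrnpl lower.

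Among genes with a mean TPM of 20 or more, Gpm6a and Dppa5a had the largest called differences in level. Gpm6a, a membrane glycoprotein of neurons, had 1173 and 1231 TPM in cortex and 0.00643 and 0.0108 in ESC, a log2 difference of 13.43 ± 0.15 (limma adjusted p = 0.000302). It was followed by Snap25 and Syt1 of the vesicle fusion machinery, Slc1a2, the glutamate transporter of astrocytes, and Ptgds, a prostaglandin synthase. Dppa5a, Pou5f1, Nanog, Trap1a and Rhox5 were the 5 with the largest loss, of which Nanog had 1026 and 1018 TPM in ESC. Synapse and vesicle genes were higher in 49 of 59 cases (83.1%) and lower in 1, beside 32.0% and 28.1% of all genes, with a median log2 difference of 4.83.

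Genes with a called event were left without a call for their level about as often as all genes with a tested event. Of the 1041 genes with a called event, 30.6% had higher and 15.9% lower TPM in cortex, and 53.4% were not called for TPM. Among the 7413 genes with a tested event and a TPM test, the shares were 23.1%, 24.5% and 52.4%.

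Most of the called events that could be read on both alleles differed in the same direction on each. In the F1 hybrid both alleles share 1 nucleus, and reads that carry a variant between the strains can be given to one of them. Of the 1509 called events, 918 had at least 20 such reads on each allele in each library. The authors also kept only events whose PSI from such reads was close to that from all reads. That filter was not applied here, so PSI on the alleles can depart from that of all reads. In ESC the 151-bp exon of Gabbr1 had a mean of 0.156 from all reads. On the C57BL/6J allele it had 0.535 and on that of SPRET/EiJ 0.685. How many events depart in this way was not counted. ΔPSI had the same sign on both parental alleles in 912 of these (99.3%) and reached 0.1 in the called direction on both in 788 (85.8%). The median absolute difference of ΔPSI between the alleles was 0.0598, and it was 0.2 or more in 93 events (10.1%). For the 30-bp exon of Meaf6, ΔPSI was 0.98 on the C57BL/6J allele and 0.96 on that of SPRET/EiJ. For the 327-bp exon of Dst it was -0.92 and -0.91 in the same order. The 84-bp exon of Raver1 was less alike, with -0.01 and -0.20. Both alleles come from the same libraries, so these counts are no independent evidence of the calls.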

How the data were processed

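Strand-specific mRNA libraries were made from total RNA. Cortex libraries were sequenced with longer reads than ESC libraries, and the authors cut all reads to the same length, so tissue and sequencing run cannot be told apart. The authors aligned reads with HISAT2 2.0.1 (submitters' processing notes) to mm10 and, separately, to the genome of the SPRET/EiJ parent, and counted reads over junctions with rMATS on Ensembl annotation. The authors deposited whole-number junction read counts, not normalized, with both replicates in 1 list, beside effective form lengths. Replicates were read by their place in the list. The deposited TPM values were computed by the authors from all reads. Columns of the authors' own comparisons (p-values, inclusion level differences) were not used, nor were tables of other tissues, except the TPM of all 14 tissue and ESC libraries in 1 alternative.

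PSI was computed from counts and form lengths. Each event was fitted with a quasi-binomial model in R 4.3.3 with limma 3.58.1 (squeezeVar with a depth trend, dispersion at least 1, F test). The design did not say from which events the prior is estimated: it was taken from events with 20 or more reads of the rarer form, since a prior from all events gave more false calls in simulated data whose spread varied between events, although it recovered more of the changed events there. Where the spread was equal, both gave as many false calls. This prior was chosen after the calls of 6 forms on these data had been seen (all are in the closing section). TPM were tested with limma (trend) on log2(TPM + 0.1) for genes with a mean TPM of 0.5 or more, and called at an adjusted p under 0.05 and 2-fold. Imprinted genes were not removed. A symbol shared by several gene IDs took the ID with the most events. Gene symbols of 99.6% of events were found in RefSeq (GRCm38.p6), and 99.3% of these events were in protein-coding genes. Sequences were not analysed here.

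Named events were, among called events without overlap and with 50 or more reads in each library, the 10 with the largest difference per direction (1 per gene), and the same for micro-exons. Without these limits, the event with the largest called difference of up to 4 genes per list and every called event of a splicing regulator were also named. Named genes were all splicing regulators and markers, 4 SR or hnRNP genes and 5 of all genes (mean TPM of 20 or more) per direction. Members, lists and rules were chosen with earlier results of these data known. Some single marker genes are not reported here.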

Additional observations from a re-analysis of the deposited data

How the results depend on the processing

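With each event thinned to 20 reads per library, the quasi-binomial model called 0 events in either direction, 0 micro-exon events in either direction and 0 Switch-Like events, with 1063 events past an unadjusted p of 0.05 and a ΔPSI of 0.1. limma on the logit of the same thinned reads (chosen after seeing the data) called 587 higher and 344 lower, against 812 and 524 with limma on the logit of all reads, with 141 micro-exon events higher and 6 lower in cortex and 468 Switch-Like events. Leaving out 1 library in turn gave 645 to 1564 events higher, 399 to 1108 lower, 156 to 208 micro-exon events higher, 7 to 20 lower and 541 to 594 Switch-Like events. It gave 3514 to 7202 genes higher and 2864 to 6054 lower, with 17 to 25 splicing regulators higher and 5 to 9 lower. The prior from all events, added after seeing the data, gave 1253 higher and 959 lower, its robust form 1194 and 932, a prior following the rarer form 1088 and 777 from all events and 846 and 583 from events with 20 or more such reads, and the prior without depth trend 822 and 564. With a filter at a mean TPM of 5, 4281 genes were higher and 5 regulators lower, since fewer genes were tested, and with a 4-fold threshold 3528 genes were lower. Pairing the same-numbered replicates (replicate block) gave 1124 events higher and 824 lower, and 6675 genes higher and 5814 lower. The numbers name animals in cortex and clones in ESC, so they do not pair samples, and the replicate differences of both tissues correlated at -0.0521 in PSI and 0.0107 in log2 TPM across events or genes. No setting reversed any of the 63 named events or 147 named genes, but all 63 events lost their call when thinned, of which limma on the thinned reads kept 45, and 8 did with limma on the logit of all reads. The planned edgeR test was not run. The deposited values are read counts, but they stand in lists of both replicates, which the input check used here did not accept. The other settings tried kept each of these counts within 1.5 times its value. The causes were not tested.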

Other observations

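The events whose difference between cortex and ESC was least alike on the alleles were ranked after their values were seen, among the 918 called events with enough reads on both alleles. The authors' filter for agreement between assigned reads and all reads was not applied. Of the 10 with the largest difference 4 are given, those ranked 1, 2, 8 and 9, as values and with no test. In Ikbip, a 118-bp exon (chr10:91093139-91093256) stayed at a PSI of 0.947 in cortex and 0.985 in ESC on the C57BL/6J allele, reads of both replicates together, and went from 0.922 in ESC to 0.240 in cortex on the SPRET/EiJ allele. On that allele the cortex replicates had 0.282 and 0.197 and the ESC clones 1 and 0.878. In Cep44, a centrosomal protein gene, a 160-bp exon rose to 0.761 in cortex from 0.0992 in ESC on the C57BL/6J allele, while the SPRET/EiJ allele had 0.0616 and 0.0273. In Mpv17, a gene of the inner mitochondrial membrane, a 385-bp exon fell to 0.432 from 0.962 on the C57BL/6J allele and was at 0.921 and 0.982 on the other. In each of these the event changed on 1 allele by more than 0.5 and on the other by less than 0.1.

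The 18-bp micro-exon of Atp6v0a1, a subunit of the vesicular proton pump, was at 0.943 on the C57BL/6J allele and 0.950 on the other in cortex. In ESC it was at 0.0911 on the C57BL/6J allele and 0.560 on the SPRET/EiJ allele, with 0.0416 and 0.140 in the clones on the first and 0.586 and 0.516 on the second. The alleles were thus alike in cortex and apart in both ESC clones. Of the 918 events, 6 (0.654%) had ΔPSI of opposite sign on the alleles.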
